A study of Mus musculus with 6 samples.

Results

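The genes described here make and use glutathione or remove reactive oxygen in other ways. They were chosen by symbol among the protein-coding genes of the deposited table: every glutathione S-transferase (*Gst* genes of the alpha, mu, omega, pi, theta, kappa and zeta classes), microsomal glutathione S-transferase (*Mgst*), glutathione peroxidase (*Gpx*), peroxiredoxin (*Prdx*), superoxide dismutase (*Sod*) and thioredoxin reductase (*Txnrd*), together with *Gclc*, *Gclm*, *Gss*, *Gsr*, *Nqo1*, *Hmox1*, *Cat*, *Txn1*, *Nfe2l2*, *Keap1* and *Srxn1*. This gave 53 of the 28262 listed genes, of which 17451 are protein-coding. No measured value entered the choice. RNA-seq had been made from untreated Sertoli cells of C57BL/6 mice at 20 days of age, to learn how the transcriptome of these cells changes without PA1, a subunit of histone methyltransferase complexes. The 3 control libraries came from mice with floxed *Pa1* alleles (*Pa1* F/F, labelled PA1flox/flox) and the 3 knockout libraries from *Amh-pa1*-/- mice (labelled PA1-/-), in which a Cre recombinase under the *Amh* promoter, active in Sertoli cells, deletes the floxed alleles. In both genotypes the cells had been freed from the tubules with enzymes, kept at 34 °C under 5% CO2 and washed to remove germ cells, which leaves the cells that attach. The labels do not say whether the replicates are separate animals or cultures, and p-values therefore measure only the spread between these libraries. The *Pa1* transcript was not analysed here, and the genotypes rest on their labels.

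Glutathione is a small thiol that cells make from glutamate, cysteine and glycine. The enzyme with the catalytic subunit GCLC and the modifier subunit GCLM performs the first, rate-limiting step, and GSS the last. Glutathione transferases join it to electrophilic compounds, glutathione peroxidases spend it to reduce peroxides, and glutathione reductase (GSR) restores the oxidized form with NADPH. Peroxiredoxins remove peroxides with electrons from thioredoxin, which thioredoxin reductases recharge, while superoxide dismutases and catalase work without either thiol. Many of these genes are induced by the transcription factor NRF2 (*Nfe2l2*), which KEAP1 marks for degradation until oxidants or electrophiles reach the cell. The testis is rich in glutathione transferases, and Sertoli cells supply and protect the germ cells that lie between them.

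Total counts on genes ranged from 14051353 to 16231443 in control and from 13203757 to 15247587 in knockout libraries, and the 53 genes held between 1.04% and 1.08% of the counts of a control library and between 0.937% and 0.971% of a knockout library. The replicates of a genotype were not equally far apart. Control replicates 1 and 3 differed by a chi-square of 2.23 per degree of freedom and knockout replicates 1 and 2 by 1.67, where sampling noise alone gives 1, against 18.4 and 20.0 for the pairs with control replicate 2 and 28.0 and 30.1 for the pairs with knockout replicate 3. Control replicate 2 and knockout replicate 3 thus stood apart, and results of the 53 genes that turn on them are given with and without them. The Sertoli cell markers *Sox9*, *Wt1*, *Cldn11* and *Clu* were abundant in both genotypes, and of 14 tested Sertoli markers 1 rose (*Dmrt1*) and 4 fell (*Gata4*, *Inha*, *Clu* and *Aard*), with a median log2 fold change of -0.12, while of all tested genes 18.2% rose and 17.1% fell. Their summed level, most of it *Clu*, was 258822 to 263823 normalized counts in control and 163449 to 202462 in knockout libraries, without overlap. *Rhox5*, another such marker, had too few counts for a test. Of 11 tested macrophage markers 9 fell and none rose, and the summed level of that list was 1959 to 2129 normalized counts in control and 1146 to 1403 in knockout libraries. *Mrc1*, the most abundant of them, averaged 984 and 1109 and did not pass the test. Of 4 tested Leydig cell markers 3 fell (*Cyp11a1*, *Hsd3b1* and *Star*), with summed levels of 12326 to 13716 and 2607 to 4898, while the Leydig markers *Cyp17a1* and *Insl3* had at most 3 counts in every library. Of 6 tested peritubular myoid markers 2 rose (*Acta2* and *Mylk*), the summed level being 5426 to 6379.9 in control and 16132 to 23860.1 in knockout libraries, highest in knockout replicate 3. *Acta2* made up the largest share of it, averaging 2968 and 13194. Without knockout replicate 3 the myoid markers *Myh11* (-1.58, adjusted p = 0.000484), *Des* (-1.35, adjusted p = 0.00275) and *Actg2* (-1.40, adjusted p = 0.00234) were lower in knockout cells, log2 fold changes standing first in the parentheses, as were the Sertoli markers *Amh* (-2.16, adjusted p = 0.000291) and *Cldn11* (-0.52, adjusted p = 0.000230), the Leydig marker *Hsd17b3* (-1.23, adjusted p = 0.0139) and the macrophage marker *C1qb* (-3.66, adjusted p = 0.0182). The Sertoli markers *Wt1* (0.26, adjusted p = 0.00180) and *Kitl* (0.51, adjusted p = 0.000380) and the macrophage marker *Mrc1* (0.28, adjusted p = 0.00813) were higher without it. Endothelial markers gave 1 higher and 2 lower of 4, mesothelial markers 3 higher of 6, and spermatogonial markers 3 lower of 3 tested at a summed level of at most 116. Of the 8 spermatogonial markers listed, the untested *Dazl* and *Nanos3* averaged 10.6 and 3.88 in control and 20.2 and 8.24 in knockout cells. For each, 1 knockout library was far above the rest. *Zbtb16*, *Stra8* and *Sohlh1* had at most 3 counts in every library. None of the 2 tested spermatocyte, 1 spermatid and 1 rete testis and efferent duct markers passed the test. In such bulk libraries fewer cells of a type and less RNA per cell cannot be told apart.

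Levels of different genes were compared as normalized counts per kb of transcript. The transcript lengths come from another annotation than the counts. That of *Srxn1*, 7.203 kb, exceeds its deposited span (152105516 to 152111376). Ranks and shares on the per-kb scale depend on these lengths. On this scale the mu-class transferases *Gstm1* and *Gstm2* stood far above all other genes of the set, with 28939 and 21276 per kb in control and 26899.6 and 19268 in knockout cells. *Gstm1* and *Gstm2* alone made up 50.4% of the summed level per kb of the 53 genes, and the 21 *Gst* genes 66.7%. The third highest was another mu-class gene, *Gstm7*, at 7361 per kb in control and 4483 in knockout cells. Over the mean of both genotypes, the most abundant members of the other families were *Mgst1* (4392 and 2914), *Gpx4* (4076 and 3322), *Gsta4* (2939 and 3073), *Prdx1* (2531 and 2329), *Txnrd1* (1739 and 1628), *Gstp1* (1689.8 and 895) and *Sod3* (596 and 843). *Prdx2* lay next to *Prdx1*, at 2532 and 2115 per kb, and *Gpx1* next to *Gpx4*, at 2607 and 3460.2. At the other end, *Gpx6*, a peroxidase known from the olfactory epithelium, was seen with 2 counts in a single control library and none elsewhere. *Gstm3*, *Gstp2* and *Mgst2* were also too low for a test, which left 49 tested genes. Summed over the 21 genes, *Gst* transcripts gave 93123 ± 3158 normalized counts in control and 81454 ± 1778 in knockout cells (SD, n = 3), without overlap between the genotypes. The remaining members summed to 62125 ± 1179 and 58855 ± 6279, a difference within the spread of the knockout libraries. Knockout replicate 3 alone was low there, at 51613. Knockout replicates 1 and 2, at 62776 and 62177, lay among the controls, which ran from 60849 to 63174.

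**Figure D1:**
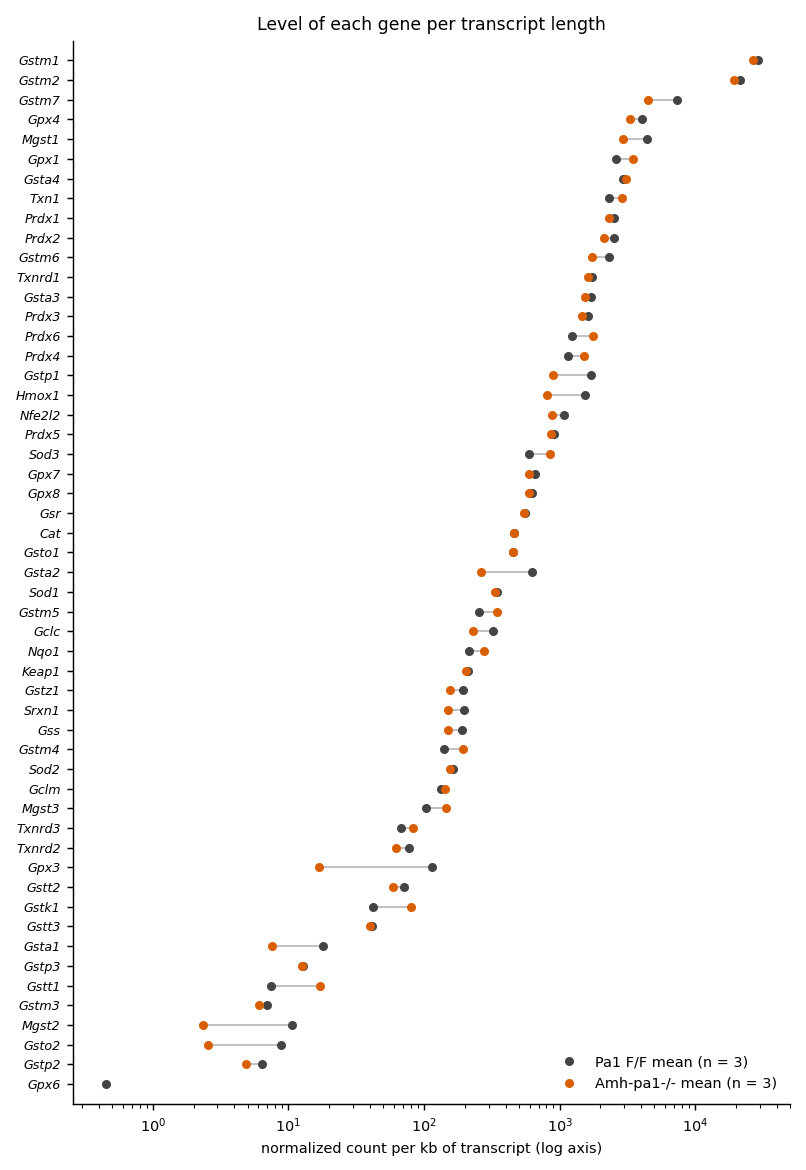
Mean normalized count per kb of transcript for each gene on a log axis, with control (grey) and knockout (orange) means of 3 libraries joined by a line. *Gstm1* and *Gstm2* stand at the top with 28939 and 21276 per kb in control cells, and a long line between the points marks genes such as *Gpx3*, whose mean was 6.90-fold lower in knockout cells.

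Antioxidant genes changed in both directions between the genotypes, and most changes were small. With an adjusted p under 0.05 in edgeR's quasi-likelihood test (Benjamini-Hochberg over 14919 tested genes) and a log2 fold change of at least 1 in size, 3 of the 49 tested genes were lower in *Amh-pa1*-/- cells (*Gpx3*, *Gsto2* and *Gsta2*), where 6.56% of all tested genes were, and none was higher, where 5.44% of all tested genes were. *Gstt1* was the single gene above that fold at an unadjusted p under 0.05, and DESeq2 and limma-voom also called none higher at that fold. At any fold, 13 of 49 (26.5%) fell and 7 (14.3%) rose, against 17.1% and 18.2% of all tested genes. Besides the first 3, *Hmox1*, *Gstp1*, *Gstm7*, *Mgst1*, *Gclc*, *Srxn1*, *Gss*, *Gstz1*, *Nfe2l2* and *Prdx2* fell, and *Gstk1*, *Prdx6*, *Gstm4*, *Gstm5*, *Gpx1*, *Prdx4* and *Txn1* rose. The 49 genes had a median of -0.10 on the log2 scale, against 0.00 over all 14919. The values of both genotypes did not overlap for 27 of the 49 genes (55.1%), close to the 52.4% of all tested genes. Without knockout replicate 3, 17 fell and 11 rose, against 21.2% and 21.9% of 15354 tested genes. Without control replicate 2, 9 fell and 7 rose, against 14% and 15% of all tested genes. When both libraries of a close pair were added up as 1 sample, which leaves 2 libraries a genotype, only *Gstm7*, *Hmox1* and *Mgst1* passed the threshold at any fold, all lower, where 4.22% of all tested genes were lower, and none rose, where 4.43% of all tested genes did. Those 3 genes were also called under each of the other alternatives that were run.

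**Figure D2:**
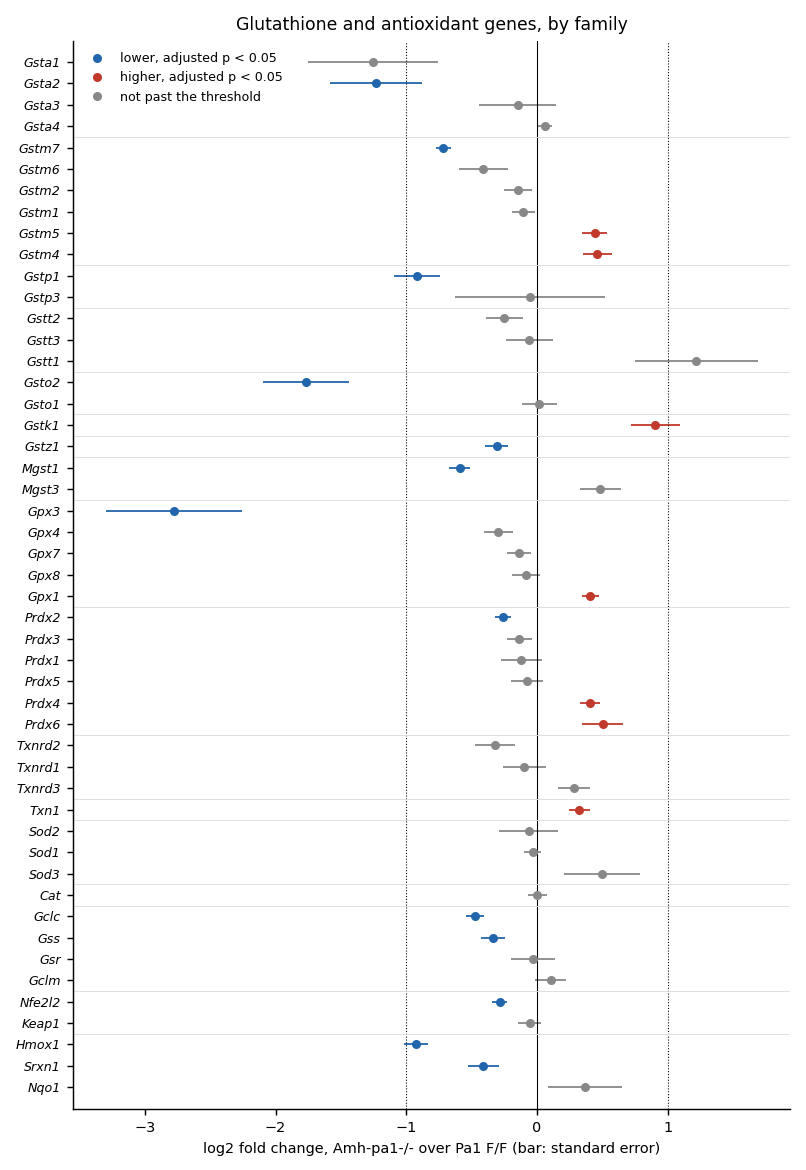
Log2 fold change of *Amh-pa1*-/- over *Pa1* F/F for the 49 tested genes, grouped by family, with bars for the standard error and dotted lines at -1 and 1. Blue points (13 genes) were lower and red points (7 genes) higher at an adjusted p under 0.05 in edgeR's quasi-likelihood test, and *Gpx3* lies farthest to the left at -2.78.

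The promoters of the changed genes were read for the core of the antioxidant response element, to which NRF2 binds with a small MAF protein, and for the AP-1 motif, the binding sequence of JUN and its partners. The windows ran from 250 bases before to 50 after each start site (RefSeq, GRCm38.p6, the build of the deposited positions), and 46 of the 53 genes had one or more, 60 windows in all. *Gclc*, *Gsr*, *Gsta4*, *Gstt2*, *Hmox1*, *Prdx6* and *Sod3* are not in that table. The letters TGACNNNGC were found on either strand in 10 of the 60 windows (16.7%) and in 12.4% of all 32851 windows. The letters TGACTCA were found in 6 windows and in 5.20% of all. A stretch TGACTCAGC, as in *Prdx1*, holds both motifs. TGACNNNGC occurred in the windows of *Gstm7*, *Mgst1*, *Nfe2l2* and *Srxn1*, which fell, of *Gstm5*, which rose, and of *Gsta3*, *Gclm*, *Prdx1*, *Txnrd1* and *Sod1*, which did not pass the test. TGACTCA occurred in those of *Gstp1* and *Srxn1*, which fell, of *Gstm5*, and of *Prdx1*, *Mgst2* and *Gstp2*. Such a match is a description of the letters and not a binding site. The stretches that hold the matches of the changed genes are given here on the strand of the gene, 5′ to 3′, with the matched letters in capitals, and matches on the reverse strand are shown as their reverse complement. *Gpx3*, the gene with the largest fall, is shown first, with the 100 bases before its start site, in which neither motif was found.
Gpx3, chr11:54902754-54902853, plus strand: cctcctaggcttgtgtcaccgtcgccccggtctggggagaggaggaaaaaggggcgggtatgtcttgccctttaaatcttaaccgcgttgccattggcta
Gstm7, chr3:107931715-107931774, minus strand: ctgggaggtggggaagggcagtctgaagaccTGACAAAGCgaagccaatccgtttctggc
Mgst1, chr6:138140447-138140506, plus strand: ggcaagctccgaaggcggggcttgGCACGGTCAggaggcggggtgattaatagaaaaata
Nfe2l2, chr2:75704854-75704913, minus strand: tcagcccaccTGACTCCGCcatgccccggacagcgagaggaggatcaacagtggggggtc
Gstp1, chr19:4037958-4038017, minus strand: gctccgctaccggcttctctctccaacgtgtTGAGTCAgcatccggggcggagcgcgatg
Srxn1, chr2:152105404-152105493, plus strand: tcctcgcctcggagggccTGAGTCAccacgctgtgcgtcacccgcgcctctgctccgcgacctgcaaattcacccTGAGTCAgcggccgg
Gstm5, chr3:107895664-107895723, plus strand: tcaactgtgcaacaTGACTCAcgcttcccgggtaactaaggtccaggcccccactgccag
Gstm5, chr3:107895794-107895853, plus strand: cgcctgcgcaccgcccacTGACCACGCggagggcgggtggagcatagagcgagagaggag
With positions given for the first base of the match on the strand of the gene, the window of *Srxn1* holds TGACTCA at -102 and -45 from the start site, besides a TGACNNNGC match at 29, outside the printed stretch. That of *Gstm5* holds TGACTCA at -176 and TGACNNNGC at -42. The match of *Gstm7* lies at -129, that of *Mgst1* at -56, that of *Nfe2l2* at -240 and that of *Gstp1* at -74.

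Among glutathione peroxidases, *Gpx3* fell and *Gpx1* rose, and the other tested members did not pass the test. *Gpx3* (chromosome 11, 54902453 to 54910377, build GRCm38), which encodes the secreted plasma enzyme, had 345, 229 and 410.1 normalized counts in control replicates 1, 2 and 3 and 18.5, 34.9 and 89.2 in knockout replicates 1, 2 and 3. All 3 knockout libraries lay below every control library, and knockout replicate 3 was the highest of them. The mean was 328 ± 92.0 in control and 47.5 ± 37.0 in knockout cells (SD, n = 3), 6.90-fold lower (log2 fold change -2.78 ± 0.52 (SE), adjusted p = 0.00728). The log2 fold change was -3.63 without knockout replicate 3, the adjusted p was at most 0.0317 with any 1 library left out, and with the close pairs summed it was 0.0843. *Gpx1* (chromosome 9, 108338903 to 108340343), the abundant selenoenzyme of the cytosol, had 2692, 2999.6 and 2691 normalized counts in control replicates 1, 2 and 3 and 3777, 3840.4 and 3511 in knockout replicates 1, 2 and 3. Its mean rose to 133% of the control mean (log2 fold change 0.41 ± 0.07 (SE), adjusted p = 0.00439), without overlap between the genotypes. *Gpx4*, which reduces lipid peroxides in membranes and was the most abundant peroxidase per kb over the mean of both genotypes, had 3872, 4099 and 3756 normalized counts in control replicates 1, 2 and 3 and 3488, 3417 and 2654 in knockout replicates 1, 2 and 3 (log2 fold change -0.29 ± 0.11 (SE), adjusted p = 0.0760). Knockout replicate 3 was the lowest, and without it the adjusted p was 0.0235 at a log2 fold change of -0.18. Of the 50-base words of the *Gpx4* transcript, 69.0% also occur in its pseudogenes, so its count depends on how shared reads were assigned. *Gpx7* and *Gpx8*, peroxidases of the endoplasmic reticulum, had log2 fold changes of -0.14 and -0.08.

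Several of these peroxidases contain selenium, as do the thioredoxin reductases. Of the genes for selenium supply and other selenoproteins, 8 of 19 tested genes rose and 2 fell (median log2 fold change 0.22), against 18.2% and 17.1% of all tested genes, whose median was 0.00. Among them, 1 rose and 1 fell by a log2 fold change of at least 1. *Lrp2*, megalin, an endocytic receptor that can bind selenoprotein P, had 111, 34.9 and 174 normalized counts in control replicates 1, 2 and 3 and 3374, 3582 and 1751 in knockout replicates 1, 2 and 3 (log2 fold change 4.77 ± 0.54 (SE), adjusted p = 0.00117). *Lrp8*, the selenoprotein P receptor of the testis, had 5445, 3034 and 5030.1 normalized counts in control replicates 1, 2 and 3 and 1996, 1966 and 2246 in knockout replicates 1, 2 and 3 (log2 fold change -1.12 ± 0.21 (SE), adjusted p = 0.00719). The knockout libraries lay above all controls for *Lrp2* and below them for *Lrp8*, and with the close pairs summed the adjusted p was 0.0382 for *Lrp2* and 0.103 for *Lrp8*.

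The mu class (7 genes, 6 tested) held both the most abundant transcripts of the set and changes in both directions. *Gstm7* (chromosome 3, 107926334 to 107931817) had 10531, 10514 and 10557 normalized counts in control replicates 1, 2 and 3 and 6384, 6611 and 6252 in knockout replicates 1, 2 and 3. The controls were nearly equal, and the knockout mean was 60.9% of the control mean (log2 fold change -0.72 ± 0.06 (SE), adjusted p = 0.000306, at most 0.00392 with any 1 library left out). *Gstm4* and *Gstm5* rose, with log2 fold changes of 0.46, adjusted p = 0.0165 and 0.44, adjusted p = 0.0129. The adjusted p of *Gstm4* was above 0.05, and up to 0.0636, without control replicate 1 or 3 or knockout replicate 2, and that of *Gstm5* was above 0.05, and up to 0.0509, without control replicate 3. *Gstm6* had 7057, 6618 and 6445 normalized counts in control replicates 1, 2 and 3 and 4007, 4424 and 6705 in knockout replicates 1, 2 and 3. Knockout replicates 1 and 2 were below all controls while replicate 3 lay among them, and *Gstm6* did not pass the test with all libraries (log2 fold change -0.41, adjusted p = 0.131) but did without knockout replicate 3 (-0.67, adjusted p = 0.000255). *Gstm1*, the most abundant gene of the set, had 38895, 41373 and 39539 normalized counts in control replicates 1, 2 and 3 and 37098, 38910.0 and 35357 in knockout replicates 1, 2 and 3, and the genotypes overlapped (log2 fold change -0.11, adjusted p = 0.385). For *Gstm2* the value was -0.14, adjusted p = 0.337, and 0.0253 without knockout replicate 3 at -0.24. *Gstm1* and *Gstm2* share 21.6% and 31.4% of their 50-base words with other genes or pseudogenes of the class, while *Gstm7*, *Gstm4* and *Gstm5* share none.

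In the alpha class (4 genes, all tested) *Gsta2* fell. *Gsta2* (chromosome 9, 78331018 to 78355788) had 478, 732 and 486 normalized counts in control replicates 1, 2 and 3 and 171, 168 and 383 in knockout replicates 1, 2 and 3. Control replicate 2 was the highest and knockout replicate 3 was the highest of its genotype, without overlap (log2 fold change -1.23 ± 0.35 (SE), adjusted p = 0.0348). The adjusted p was above 0.05, and up to 0.102, without control replicate 1, 2 or 3 or knockout replicate 1 or 2. The transcript shares 62.5% of its 50-base words with other alpha-class genes, so its count is uncertain. *Gsta4*, which acts on products of lipid peroxidation and was the most abundant of the class, had 6223, 6029 and 6344 normalized counts in control replicates 1, 2 and 3 and 6478, 6607 and 6356 in knockout replicates 1, 2 and 3 (log2 fold change 0.06, adjusted p = 0.388), each knockout library being slightly above each control without passing the test. *Gsta3*, which also acts in steroid synthesis, was at -0.15, adjusted p = 0.726, and *Gsta1*, with 49 counts in control and 19 in knockout cells, at -1.26, adjusted p = 0.0928. *Gsta1* passed the threshold only without knockout replicate 2, among the libraries left out in turn, and shares 88.6% of its words with its neighbours in the class.

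Of the pi class, *Gstp1* (chromosome 19, 4035407 to 4037921), which conjugates many drugs and electrophiles, fell. It had 1491, 1599 and 1493 normalized counts in control replicates 1, 2 and 3 and 823, 1012 and 593 in knockout replicates 1, 2 and 3. The controls lay close together and every knockout library was below them, replicate 3 the lowest (log2 fold change -0.92 ± 0.18 (SE), adjusted p = 0.00824, at most 0.0315 with any 1 library left out, and 0.0619 with the close pairs summed). 56.3% of its 50-base words recur in *Gstp2* or a pseudogene. *Gstp2* itself had 16 counts in control and 11 in knockout cells, and *Gstp3* 28 and 25 (log2 fold change -0.05).

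The smaller classes followed no common direction. *Gsto2* (chromosome 19, 47865545 to 47886324), an omega-class enzyme that reduces dehydroascorbate, had 11.8, 11.6 and 12.6 normalized counts in control replicates 1, 2 and 3 and 3.90, 3.38 and 3.01 in knockout replicates 1, 2 and 3, lower in every knockout library (log2 fold change -1.77 ± 0.33 (SE), adjusted p = 0.00731, at most 0.0335 with any 1 library left out). It rests on 37 counts in control and 10 in knockout cells, a ratio of 3.48 with an exact 95% interval from 1.699 to 7.86 that covers counting error only. *Gsto2* lies entirely within *Cfap43* on the other strand, which had 402, 391 and 418 normalized counts in control replicates 1, 2 and 3 and 418, 425 and 854 in knockout replicates 1, 2 and 3, and the strand setting of the counting is not given in the sources used here. *Gsto1*, the abundant omega gene, had 830.0, 889 and 854 normalized counts in control replicates 1, 2 and 3 and 979, 936 and 687 in knockout replicates 1, 2 and 3 (log2 fold change 0.02, adjusted p = 0.935). Knockout replicates 1 and 2 exceeded all controls and replicate 3 was below them. *Gstk1* (chromosome 6, 42245935 to 42250447), the mitochondrial and peroxisomal kappa enzyme, rose and had 48.0, 38.7 and 37.8 normalized counts in control replicates 1, 2 and 3 and 78.1, 87.9 and 68.1 in knockout replicates 1, 2 and 3 (log2 fold change 0.91 ± 0.19 (SE), adjusted p = 0.0108, at most 0.0476 with any 1 library left out). All 3 knockout libraries exceeded the controls, and without control replicate 1 the log2 fold change was 1.03, the only called gene of the set to pass 1 in the higher direction with a library left out. *Gstz1*, which takes part in tyrosine breakdown, fell with 402, 420.2 and 467 normalized counts in control replicates 1, 2 and 3 and 348, 349 and 344 in knockout replicates 1, 2 and 3 (log2 fold change -0.31 ± 0.09 (SE), adjusted p = 0.0319). The adjusted p of *Gstz1* was above 0.05, and up to 0.102, without control replicate 1, 2 or 3 or knockout replicate 1 or 2, and it overlaps *Pomt2* on the other strand. In the theta class none of 3 genes passed the test. *Gstt2* had 169, 177 and 204.5 normalized counts in control replicates 1, 2 and 3 and 178, 144 and 140.3 in knockout replicates 1, 2 and 3 (log2 fold change -0.25, adjusted p = 0.210). *Gstt1* had 50.1 normalized counts in knockout replicate 3 and at most 21.5 elsewhere (1.22, adjusted p = 0.0859), and *Gstt3* was at -0.06.

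Microsomal transferases sit in membranes. *Mgst1* (chromosome 6, 138140316 to 138156755), which also has peroxidase activity, fell and had 4939, 5786 and 5008 normalized counts in control replicates 1, 2 and 3 and 3324, 3477 and 3636 in knockout replicates 1, 2 and 3. Each knockout library lay below each control, and the mean was 66.3% of the control mean (log2 fold change -0.59 ± 0.08 (SE), adjusted p = 0.00206, at most 0.0122 with any 1 library left out). *Mgst3* was just outside the threshold in the other direction (log2 fold change 0.49, adjusted p = 0.0502). It was inside it with DESeq2 (adjusted p = 0.0457), with limma-voom (0.0463), with the replicate number as a block (0.0477) and with no filter on low counts. *Mgst2* had 26 counts in control and 5 in knockout cells, a ratio of 4.90 with an exact 95% interval from 1.85 to 16.3, and was not tested.

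**Figure D3:**
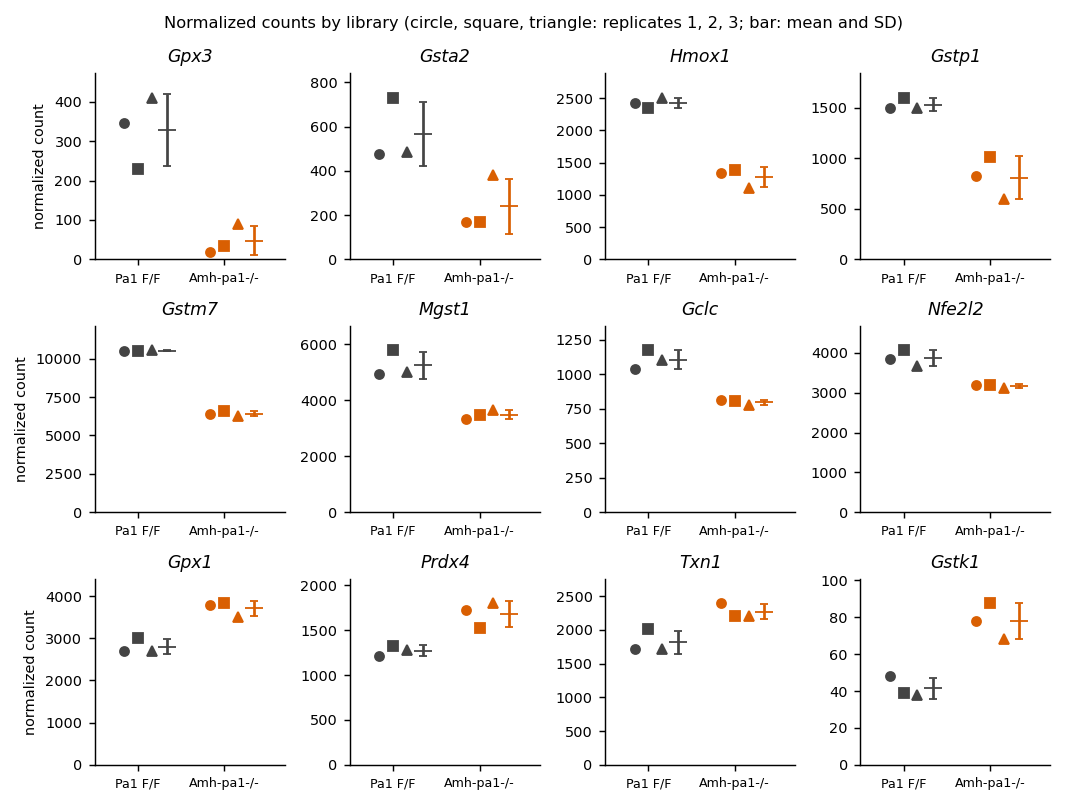
Normalized counts of 12 genes in each library, with control in grey and knockout in orange, a circle, square and triangle for replicates 1, 2 and 3, and the mean with its SD at the side, and each axis starts at 0. The upper 8 panels show genes that fell and the last 4 genes that rose. All 12 were picked from the genes with an adjusted p under 0.05. That the knockout libraries lie on one side of the controls in every panel is therefore no separate result. Of all tested genes, 52.4% had no overlap between the genotypes.

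In the thioredoxin system *Txn1*, *Prdx4* and *Prdx6* rose, whereas *Prdx2* and *Srxn1* fell. *Txn1* (chromosome 4, 57943373 to 57956411), cytosolic thioredoxin, had 1711, 2009 and 1724 normalized counts in control replicates 1, 2 and 3 and 2403, 2214 and 2203 in knockout replicates 1, 2 and 3 (log2 fold change 0.33 ± 0.08 (SE), adjusted p = 0.0187). Its adjusted p was above 0.05, and up to 0.0764, without control replicate 1 or 3 or knockout replicate 1. *Prdx4*, the peroxiredoxin of the secretory pathway, had 1207, 1324 and 1284 normalized counts in control replicates 1, 2 and 3 and 1726, 1524 and 1806 in knockout replicates 1, 2 and 3 (log2 fold change 0.41 ± 0.08 (SE), adjusted p = 0.00766), with each knockout library above each control. *Prdx6*, which takes its electrons from glutathione, had 3388, 3398 and 3269 normalized counts in control replicates 1, 2 and 3 and 5255, 5459 and 3536 in knockout replicates 1, 2 and 3. Replicates 1 and 2 of the knockout were far above the controls and replicate 3 was slightly above them (log2 fold change 0.50 ± 0.16 (SE), adjusted p = 0.0455), the adjusted p being above 0.05, and up to 0.130, without control replicate 1, 2 or 3 or knockout replicate 1 or 2. Without knockout replicate 3 the log2 fold change of *Prdx6* was 0.68. *Prdx1*, the most abundant peroxiredoxin per kb over the mean of both genotypes, had 6356, 7147 and 6789.9 normalized counts in control replicates 1, 2 and 3 and 7135, 6839 and 4702 in knockout replicates 1, 2 and 3, and knockout replicate 3 alone lay outside the range of the other libraries (log2 fold change -0.12, adjusted p = 0.585). *Prdx2* was at -0.26, adjusted p = 0.0214, above 0.05, and up to 0.0938, without control replicate 1 or 3 or knockout replicate 1 or 2, while *Prdx3* and *Prdx5*, which work in mitochondria, were at -0.13 and -0.08. Without knockout replicate 3, *Prdx3* passed the threshold (adjusted p = 0.0171, log2 fold change -0.23). *Srxn1* (chromosome 2, 152105516 to 152111376), sulfiredoxin, which restores overoxidized peroxiredoxins and is an NRF2 target, had 1375, 1418 and 1488 normalized counts in control replicates 1, 2 and 3 and 1196, 1149 and 878 in knockout replicates 1, 2 and 3 (log2 fold change -0.41 ± 0.12 (SE), adjusted p = 0.0346), the adjusted p being above 0.05, and up to 0.108, without control replicate 1, 2 or 3 or knockout replicate 2. None of the 3 thioredoxin reductases passed the test. *Txnrd1* had 5780.3, 5404 and 6167 normalized counts in control replicates 1, 2 and 3 and 6064, 6176 and 3999.9 in knockout replicates 1, 2 and 3 (log2 fold change -0.10, adjusted p = 0.686), *Txnrd2* was at -0.32 and *Txnrd3* at 0.28, the last with an adjusted p of 0.0497 without knockout replicate 3.

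Of other thioredoxin and glutaredoxin partners, 5 of 21 tested genes rose and 4 fell (median log2 fold change 0.04), against 18.2% and 17.1% of all tested genes. *Txndc2*, a thioredoxin known from sperm, was the gene of this list that fell by at least 1 on the log2 scale, with 28.1, 33.9 and 39.9 normalized counts in control replicates 1, 2 and 3 and 5.86, 5.63 and 17.0 in knockout replicates 1, 2 and 3 (log2 fold change -1.81 ± 0.44 (SE), adjusted p = 0.0189), although its adjusted p was above 0.05, and up to 0.0683, without control replicate 3 or knockout replicate 1 or 2. Without knockout replicate 3 its log2 fold change was -2.53.

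No superoxide dismutase passed the test with all libraries, and neither did catalase. *Sod3* (chromosome 5, 52363791 to 52371418), the extracellular enzyme and, at the transcript lengths used, the most abundant dismutase per kb, had 2379, 2147 and 2496 normalized counts in control replicates 1, 2 and 3 and 3917, 4199 and 1809 in knockout replicates 1, 2 and 3. Knockout replicates 1 and 2 were well above all controls and replicate 3 below all of them (log2 fold change 0.50, adjusted p = 0.223, and 0.80, adjusted p = 0.000190, without knockout replicate 3). *Sod2*, the mitochondrial enzyme, had 780.2, 1385 and 754 normalized counts in control replicates 1, 2 and 3 and 937, 933 and 922 in knockout replicates 1, 2 and 3, where control replicate 2 was far above the rest. Its log2 fold change was -0.06, adjusted p = 0.849 with all libraries and 0.28 without control replicate 2 (adjusted p = 0.0215). *Sod1* was at -0.03, adjusted p = 0.704. Its transcript length was taken as 5.315 kb, against 3.924 kb for *Sod3*, and the rank of *Sod3* per kb rests on these lengths. *Cat* had 1159, 1186 and 1249 normalized counts in control replicates 1, 2 and 3 and 1198, 1296 and 1110.2 in knockout replicates 1, 2 and 3, and the genotypes overlapped (log2 fold change 0.00, adjusted p = 0.974).

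Of the 4 enzymes that make or restore glutathione, *Gclc* and *Gss* fell. *Gclc* (chromosome 9, 77754535 to 77794485) had 1038, 1173 and 1105 normalized counts in control replicates 1, 2 and 3 and 811, 803 and 776 in knockout replicates 1, 2 and 3. All knockout libraries were below the controls, at 72.1% of the control mean (log2 fold change -0.47 ± 0.07 (SE), adjusted p = 0.00263, at most 0.0154 with any 1 library left out). *Gclm*, its partner subunit, had 824, 747 and 953 normalized counts in control replicates 1, 2 and 3 and 1003, 909 and 802 in knockout replicates 1, 2 and 3, with overlap (log2 fold change 0.10, adjusted p = 0.529). *Gss* had 341, 398 and 383 normalized counts in control replicates 1, 2 and 3 and 292, 296 and 301 in knockout replicates 1, 2 and 3 (log2 fold change -0.34 ± 0.09 (SE), adjusted p = 0.0279). Its adjusted p was above 0.05, and up to 0.0895, without control replicate 2 or 3 or knockout replicate 1 or 2, and *Gss* overlaps *Acss2* on the other strand, which also fell (log2 fold change -0.77, adjusted p = 0.00476). *Gsr* had 1465, 1510.4 and 1489 normalized counts in control replicates 1, 2 and 3 and 1667, 1662 and 1052 in knockout replicates 1, 2 and 3. Knockout replicates 1 and 2 were above all controls and replicate 3 below them, and the log2 fold change was -0.03, adjusted p = 0.915 with all libraries and 0.16, adjusted p = 0.0243, without knockout replicate 3.

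Among genes for cystine uptake and glutathione turnover, 4 of 21 tested genes rose and 4 fell (median log2 fold change -0.11), against 18.2% and 17.1% of all tested genes. *Ggt5*, a gamma-glutamyltransferase that cleaves glutathione conjugates outside the cell, had 76.1, 67.8 and 70.3 normalized counts in control replicates 1, 2 and 3 and 19.5, 16.9 and 22.0 in knockout replicates 1, 2 and 3 (log2 fold change -1.86 ± 0.19 (SE), adjusted p = 0.000787). *Ggt7*, of the same family, moved the other way with 36.2, 38.7 and 40.9 normalized counts in control replicates 1, 2 and 3 and 105, 99.1 and 92.2 in knockout replicates 1, 2 and 3 (log2 fold change 1.36 ± 0.15 (SE), adjusted p = 0.00114). Neither gene overlapped between the genotypes, and the adjusted p was at most 0.00742 with any 1 library left out for *Ggt5* and at most 0.00982 with any 1 library left out for *Ggt7*. *Dpep2*, a membrane dipeptidase, had 45.3, 56.2 and 37.8 normalized counts in control replicates 1, 2 and 3 and 6.83, 2.25 and 15.03 in knockout replicates 1, 2 and 3 (log2 fold change -2.49 ± 0.50 (SE), adjusted p = 0.00956). Without knockout replicate 3 its log2 fold change was -3.28.

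*Nfe2l2* itself fell slightly and *Keap1* did not pass the test. *Nfe2l2* (chromosome 2, 75675513 to 75704641) had 3847, 4069 and 3671 normalized counts in control replicates 1, 2 and 3 and 3199.7, 3201 and 3115 in knockout replicates 1, 2 and 3 (log2 fold change -0.28 ± 0.06 (SE), adjusted p = 0.00898, at most 0.0385 with any 1 library left out), and the highest knockout library was below the lowest control. *Keap1* had 659.7, 668 and 696 normalized counts in control replicates 1, 2 and 3 and 720.4, 625 and 602 in knockout replicates 1, 2 and 3 (log2 fold change -0.06, adjusted p = 0.653). Of *Hmox1* and *Nqo1*, both textbook NRF2 targets, *Hmox1* fell and *Nqo1* did not pass the test with all libraries. *Hmox1* (chromosome 8, 75093621 to 75100589), heme oxygenase, which degrades heme and is also high in macrophages, had 2423, 2349 and 2511 normalized counts in control replicates 1, 2 and 3 and 1341, 1383 and 1102 in knockout replicates 1, 2 and 3. The knockout mean was 52.5% of the control mean and no library overlapped (log2 fold change -0.93 ± 0.09 (SE), adjusted p = 0.000706, at most 0.00649 with any 1 library left out). Of 11 tested macrophage markers 9 fell between the same groups, while *Mrc1* and *C1qb* (adjusted p = 0.254 and 0.0750) did not pass the test. *Lyz2*, one of the 9, averaged 456 normalized counts in control and 47.4 in knockout cells. The part of such cells in the *Hmox1* values was not tested. *Nqo1*, a quinone reductase, had 550.0, 491 and 687 normalized counts in control replicates 1, 2 and 3 and 898, 901 and 433 in knockout replicates 1, 2 and 3. Knockout replicates 1 and 2 exceeded every control and replicate 3 was below them all (log2 fold change 0.37, adjusted p = 0.351, and 0.65, adjusted p = 0.00809, without knockout replicate 3).

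Of 23 tested NRF2 targets that were not chosen by symbol, 8 fell and none rose (median log2 fold change -0.16), against 17.1% and 18.2% of all tested genes. The single one beyond a log2 fold change of 1 in size was *Tbxas1*, thromboxane synthase, with 30.8, 23.2 and 26.2 normalized counts in control replicates 1, 2 and 3 and 7.81, 14.6 and 4.01 in knockout replicates 1, 2 and 3 (log2 fold change -1.61 ± 0.42 (SE), adjusted p = 0.0248), whose adjusted p was above 0.05, and up to 0.0878, without control replicate 1 or 3 or knockout replicate 1. Between the same groups 9 of 11 tested macrophage markers fell, whose part in these values was not tested. The other 7 were *Sqstm1*, *Blvrb*, *Osgin1*, *Taldo1*, *Pgd*, *Idh1* and *Tkt*, named after their values were seen, and their log2 fold changes ran from -0.88 (*Osgin1*) to -0.28 (*Tkt*). *Taldo1*, *Pgd* and *Tkt* belong to the pentose phosphate pathway and *Idh1* also yields NADPH. Among partners and regulators of NRF2, 4 of 15 tested genes rose and 1 fell (median log2 fold change 0.06), against 18.2% and 17.1% of all tested genes. *Nfe2l3*, which encodes the related factor NRF3, had 482, 433 and 379 normalized counts in control replicates 1, 2 and 3 and 1013, 964 and 1475 in knockout replicates 1, 2 and 3 (log2 fold change 1.42 ± 0.18 (SE), adjusted p = 0.00186), higher in every knockout library and highest in replicate 3.

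Enzymes that produce superoxide or peroxide were described beside those that remove them. In that list 1 of 12 tested genes rose and 6 fell (median log2 fold change -0.83), against 18.2% and 17.1% of all tested genes. Of the 4 genes that fell by at least 1 on the log2 scale, *Cybb*, *Ncf1* and *Rac2* encode parts of the phagocyte NADPH oxidase. *Cybb* had 84.3, 304 and 89.1 normalized counts in control replicates 1, 2 and 3 and 6.83, 7.89 and 10.02 in knockout replicates 1, 2 and 3 (log2 fold change -4.25 ± 0.66 (SE), adjusted p = 0.00360), highest in control replicate 2, without which the log2 fold change was -3.38. *Rac2* had 18.1, 28.1 and 19.9 normalized counts in control replicates 1, 2 and 3 and 1.95, 0 and 1.002 in knockout replicates 1, 2 and 3, which are 68 counts in control and 3 in knockout cells, a ratio of 21.3 with an exact 95% interval from 7.003 to 106. *Ncf1* had 14.5, 20.3 and 12.6 normalized counts in control replicates 1, 2 and 3 and 3.90, 0 and 0 in knockout replicates 1, 2 and 3, which are 49 and 4 counts, a ratio of 11.5 (4.23 to 44.0). The adjusted p of *Ncf1* was above 0.05, and up to 0.0516, without control replicate 1. These are genes of phagocytes, and 9 of 11 tested macrophage markers fell between the same groups, whose part in the result was not tested. *Nox4*, an oxidase of other cell types, rose with a log2 fold change of 0.64, adjusted p = 0.0208, although the adjusted p was above 0.05, and up to 0.0755, without control replicate 1 or 2 or knockout replicate 1 or 2. Metallothioneins and copper delivery genes gave 0 higher and 1 lower of 7 tested (median log2 fold change -0.12), the lower one being *Slc31a1*, a copper importer. Over all 7 lists of related genes, 22 of 118 tested genes rose and 26 fell, with a median log2 fold change of 0.02, against 18.2% and 17.1% of all tested genes.

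Knockout replicate 3 differed from the mean of replicates 1 and 2 by more than 0.5 on the log2 scale for 13 of the 49 tested genes (26.5%), near the 24.5% of all tested genes, and more of them were lower than higher. Of the 49 tested genes, 33 (67.3%) were lower there than in the mean of replicates 1 and 2, against 49.2% of all tested genes. On the log2 scale 9 genes (18.4%) were more than 0.5 below that mean, against 11.5% of all tested genes, and 4 (8.16%) more than 0.5 above it, against 12.9%. The 9 were *Sod3*, *Nqo1*, *Gsta3*, *Gsr*, *Gstp1*, *Txnrd1*, *Prdx6*, *Prdx1* and *Gsta1*, and the 4 were *Gpx3*, *Gstt1*, *Gsta2* and *Gstm6*. For 6 of the 49 genes (12.2%), replicates 1 and 2 lay on one side of all controls and replicate 3 on the other, against 6.27% of all tested genes. These were *Sod3*, *Nqo1*, *Gsr*, *Gsto1*, *Gpx8* and *Gstt3*, and none of them passed the test with all libraries. Summed levels of several marker lists also differed between replicate 3 and replicates 1 and 2. In normalized counts, peritubular myoid markers gave 23860.1 against 16575 and 16132, Leydig markers 4898 against 2607 and 2734, endothelial markers 1491 against 943 and 951 and Sertoli markers 202462 against 163449 and 165415. The Sertoli sum was mostly *Clu*, and *Sox9* had 3172 against 4904 and 4786. The endothelial difference was mostly *Kdr*, with 485 against 80.0 and 74.4. Members of the macrophage and mesothelial lists went both ways there. *Mrc1* had 932 against 1180.1 and 1216 and *Lyz2* 85.2 against 24.4 and 32.7, while *Wt1*, also a Sertoli marker, had 4493 against 6084 and 6063 and *Upk3b* 339 against 230.4 and 242. The part of these lists in the values of the 53 genes was not tested. Of the control libraries, replicate 2 differed from the mean of replicates 1 and 3 by more than 0.5 for 4 of the 49 genes (8.16%), against 13.6% of all tested genes.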

How the data were processed

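RNA-seq counts of 6 Sertoli cell libraries were used, 3 *Pa1* F/F and 3 *Amh-pa1*-/-, grouped by their labels. Per the submitters' processing notes and the study's methods, alignment to GRCm38 was done with HISAT2 2.1.0 and counting per gene with HTSeq 0.6.0, and the authors deposited the counts as they were. The table also holds the authors' own comparison (mean, fold change and p-values), which was not used. Normalized counts are counts scaled by TMM to the mean effective library size. Genes passing edgeR's filterByExpr (minimum count 10, minimum total 15) were tested with edgeR's quasi-likelihood F-test (edgeR 4.0.16, R 4.3.3) with Benjamini-Hochberg adjustment over all tested genes. A gene was called at an adjusted p under 0.05, and the fold threshold was a log2 fold change of 1. The standard error is the log2 fold change over the square root of F. The study names DEGseq, which takes no replicate spread, and its thresholds were used. Levels per kb use the length of 1 canonical transcript a gene (GENCODE, GRCm39, lengths and shared 50-base words only).

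The alternatives were DESeq2 1.42.0 (Wald test, and its size factors in edgeR), limma-voom (limma 3.58.1), library size only, a binomial test on summed reads, other filters, the replicate number as a block, each library left out in turn, and the close pairs of replicates summed. Marker lists covered Sertoli, macrophage, Leydig, peritubular myoid, endothelial, mesothelial, spermatogonial, spermatocyte, spermatid and rete testis and efferent duct cells. Values in every library are given for members past both thresholds, for *Nfe2l2*, *Keap1*, *Gclc*, *Gclm*, *Gss*, *Gsr*, *Nqo1*, *Hmox1*, *Srxn1*, *Cat* and *Txn1*, for the most abundant member of each family per kb, and for related genes past both thresholds, of which 1 is not reported here, and other members with such values were chosen after these were seen. The genes, the lists and the rules were chosen with earlier results of these data known. Reads carry no molecular identifiers, so intervals and the floor of 3 counts (0.185 to 0.227 CPM, computed here) cover counting error only.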

Additional observations from a re-analysis of the deposited data

How the results depend on the processing

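The limits of these counts are the 3 libraries a genotype, the close pairs among them, and the low counts of genes such as *Gsto2*. DESeq2's Wald test, its size factors in edgeR, library size alone, limma-voom and both other filters gave between 6 and 8 higher and between 11 and 13 lower antioxidant genes at any fold, and 2 or 3 lower and none higher past the fold threshold. Of all tested genes, 9.91% were higher and 8.53% lower at any fold with no filter beyond 1 count. The other settings just named gave 17.8% to 18.3% higher and 16.5% to 17.5% lower. The binomial test on summed reads, which takes no replicate spread, gave 14 higher and 26 lower at any fold, where it called 35.3% and 34.1% of all tested genes, 1 higher past the fold threshold (*Gstt1*), and 48 higher and 45 lower related genes. With the close pairs summed, 0 of 51 tested antioxidant genes were higher and 3 lower at any fold, against 4.43% and 4.22% of 15966 tested genes. Past the fold threshold 0 antioxidant genes were lower, against 455 of all tested genes, and 8 related genes were higher and 6 lower at any fold. This fit has fewer libraries. With 1 library left out in turn, the count of higher genes at any fold ran from 3 (without control replicate 3) to 11 (without knockout replicate 3) and that of lower genes from 8 (without control replicate 3) to 17 (without knockout replicate 3), while the shares of all tested genes over the 6 fits ran from 11.5% to 21.9% higher and from 11.1% to 21.2% lower. Past the fold threshold 0 or 1 were higher, the latter without control replicate 1, and 2 to 4 were lower, while related genes ran from 15 to 30 higher and from 14 to 31 lower. Of the values of called genes under the alternatives, 237 were past the same threshold and 62 were not, and none of those genes changed direction.

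Deviations of libraries with the same replicate number correlated at 0.11, -0.16 and -0.18, and those of control replicate 2 and knockout replicate 3 at 0.21. With deviations from means of 3 libraries, such values cannot decide whether the replicate numbers pair the libraries. With the replicate number as a block, 6 of 49 antioxidant genes were higher and 8 lower at any fold, against 12.8% and 12.6% of all tested genes. In that fit 2 antioxidant genes were lower past the fold threshold, against 842 of all 14919, and 13 related genes were higher and 21 lower.

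Genes that did not pass the test changed the sign of their log2 fold change as follows, and the cause was not tested. With 1 library left out in turn, *Gpx8* ran from -0.193 to 0.018 (positive without knockout replicate 2), *Gsta3* from -0.305 to 0.121 (positive without knockout replicate 3 or control replicate 2), and *Gsto1* from -0.076 to 0.162 (negative without knockout replicate 1 or 2 or control replicate 1). *Gstp3* ran from -0.490 to 0.020 and *Gstt3* from -0.215 to 0.040 (both highest without knockout replicate 1, and *Gstt3* also positive without knockout replicate 2 or control replicate 3). *Prdx1* ran from -0.225 to 0.049, *Txnrd1* from -0.186 to 0.084 and *Gsr* from -0.130 to 0.164, each positive only without knockout replicate 3. *Prdx5* ran from -0.146 to 0.068 and *Sod2* from -0.218 to 0.277, positive only without control replicate 2, *Sod1* from -0.068 to 0.029, positive only without knockout replicate 2, and *Cat* from -0.038 to 0.059, negative without knockout replicate 2 or control replicate 1 or 2. With the close pairs summed the value was 0.0098 for *Gpx8*, -0.051 for *Gsto1*, 0.033 for *Gstt3* and -0.0017 for *Cat*. With limma-voom it was -0.0011 for *Gsto1* and 0.249 for *Gstp3*, which was 0.059 with the block. *Cat* was at -0.0013 with DESeq2's Wald test, -0.0012 with its size factors and -0.0090 with at least 10 counts in every library.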
